A study of Mus musculus with 6 samples.

Results

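The endothelial cells of the Tbx18 line were compared between 2 kinds of cortical injury. The cells were those that the deposited cell table placed in cluster 0 of the Tbx18 data set, 1788 of 3845 cells after physical injury and 1488 of 2047 cells after ischemic injury, or 3276 of 5892 injured cells of this line and of 17033 cells in the whole series. All mice were 3 to 4 months old and carried Tbx18-CreERT2/Ai14-flx, in which tamoxifen given 7 days before injury turns on the red reporter tdT in cells that express Tbx18 and in their descendants. Physical injury was an intracerebral injection of saline. Ischemic injury was an intracerebral injection of endothelin-1 with the nitric oxide synthase inhibitor L-NAME (ET-1/L-NAME), which constricts local vessels. Cortical tissue was taken 3 days later, and live tdT+/DAPI- cells were collected by fluorescence-activated cell sorting and sequenced with the 10x Genomics 3' v3 kit. A naive Tbx18 library, with 159 of 686 cells in cluster 0, gave the uninjured level. Cluster 5 of the NG2-Cre-ERT2/Ai14-flx line, the endothelial cluster of that data set with 404 cells after physical injury, 453 after ischemic injury and 101 naive cells, was used to check directions in a second line given the same tamoxifen, injuries and sort.

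Each group was 1 library of cells pooled from several animals. No test between conditions was therefore possible, and the intervals given are 95% intervals that cover counting error only. Tbx18 marks mural cells, that is pericytes and smooth muscle cells, so the endothelial cells entered a sort driven by a mural gene, and whether they descended from labelled mural cells cannot be read from these counts. The cluster held 12311618 unique molecular identifiers (UMIs, counted transcripts) after physical injury and 14091363 after ischemic injury, with a median of 6701.5 and 8981 UMIs per cell, and 741683 UMIs with a median of 2600 in the naive library. Between 0 and 5 cell barcodes were shared by any pair of the 6 libraries, and 3 by the 2 injured Tbx18 libraries.

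Endothelial cells line the vessels and in the cortex form the blood-brain barrier. Their expression runs in order along the vessel, from arterial through capillary to venous cells, and it is the venous cells that display selectins, adhesion molecules and chemokines when leukocytes are recruited to injured tissue. New vessels grow from tip cells, which express a further set of secreted factors.

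The label of the cluster was borne out by its markers. Cldn5, the main tight junction claudin of brain endothelium, stood at 4889 CPM (counts scaled to the library total) after physical injury and 4939 CPM after ischemic injury. Pecam1, a junctional adhesion molecule of endothelial cells, stood at 711 and 742 CPM. The log2 ratio of ischemic over physical injury, taken after adding 1 CPM, lay between -0.13 for Ly6c1 and 0.18 for Cdh5 among the 10 endothelial markers, so these genes gave nearly the same level in both libraries. Mural and erythroid markers are described further on. Markers of the brain's other cells were scarce: the summed level was 32.9 and 31.3 CPM for 10 microglia and macrophage genes, 66.8 and 77.1 CPM for 6 astrocyte genes, 15.3 and 6.74 CPM for 7 fibroblast genes, and 0.487 and 0.781 CPM for 5 neutrophil genes.

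The cluster made up 46.5% of the cells after physical injury (95% Clopper-Pearson interval 44.9 to 48.1) and 72.7% after ischemic injury (70.7 to 74.6), a difference of 26.2 points (23.6 to 28.7). In the NG2 line the direction was the other way, with 15.8% of the cells in the endothelial cluster after physical injury (14.4 to 17.2) and 12.6% after ischemic injury (11.6 to 13.8). The sort gate and the other cells of each library set these shares too. The smooth muscle cluster held 827 cells, 21.5%, after physical injury and 47 cells, 2.30%, after ischemic injury. The pericyte cluster held 433 cells, 11.3%, and 86 cells, 4.20%.

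The summed profiles of the endothelial cells after the 2 injuries were nearly the same. Of 3915 genes that reached 50 CPM in the higher library, 3881 (99.1%) differed by less than 1.5-fold, and the median log2 ratio was 0.00. Past a 2-fold difference, 8 genes were higher after ischemic injury, which is 0.204% of the genes compared, and 1 was lower, which is 0.0255%. In the NG2 line, which had fewer cells, 27 of 4036 genes were higher (0.669%) and 25 lower (0.619%). The differences in the Tbx18 line were therefore few, and at this minimum level most lay on the side of higher levels after ischemia. With a minimum of 10 CPM the counts were 24 higher and 15 lower, and with none 72 and 104.

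**Figure D1:**
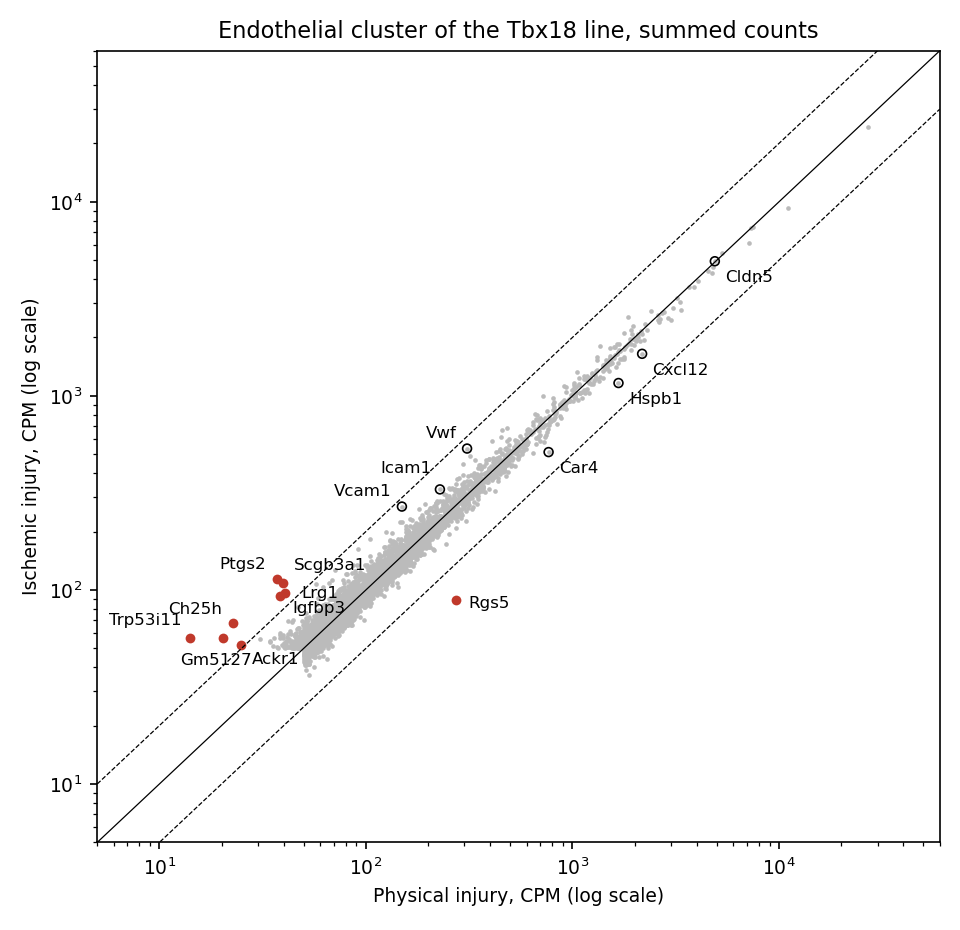
Level of each gene in the endothelial cluster of the Tbx18 line after physical injury (x axis) and ischemic injury (y axis), both in CPM on log scales, for the 3915 genes at 50 CPM or more in the higher library. The solid line marks equal levels and the dashed lines a 2-fold difference. Red points are the 9 genes beyond it, 8 above and Rgs5 below, and open circles mark other genes named in the text.

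Trp53i11 and Igfbp3 were past 2-fold in both lines. Trp53i11, a p53-inducible gene, stood at 10.8 CPM in naive cells, 14.1 CPM after physical injury and 56.6 CPM after ischemic injury, a log2 ratio of 1.94 (95% interval 1.77 to 2.25). Igfbp3, which binds insulin-like growth factors, stood at 49.9, 38.2 and 93.1 CPM, a log2 ratio of 1.26 (1.13 to 1.44). For both genes the physical injury library of the Tbx18 line was close to or below the naive one, and the ischemic library stood apart. The NG2 line gave the same direction between the injuries, with Trp53i11 at 14.1 CPM in naive cells, 32.2 CPM after physical and 142 CPM after ischemic injury (log2 ratio 2.11), and Igfbp3 at 20.4, 67.5 and 174 CPM (log2 ratio 1.35). There physical injury was above the naive level too. Trp53i11 lay near the 50 CPM minimum in the Tbx18 line, where 10 cells held 39.9% of its counts after physical and 34.4% after ischemic injury. Its Tbx18 call was lost with the mean of per-cell CPM and without the 10 highest cells, which left 8.45 and 37.1 CPM. In the NG2 line the levels without the 10 highest cells were 8.67 and 80.3 CPM.

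Enzymes that make lipid mediators formed another pair. Ptgs2, the inducible cyclooxygenase of prostaglandin synthesis, stood at 5.39 CPM in naive cells, 37.0 CPM after physical injury and 113 CPM after ischemic injury, a log2 ratio of 1.59 (1.46 to 1.77). Ch25h, which makes 25-hydroxycholesterol, stood at 18.9, 22.7 and 67.8 CPM, a log2 ratio of 1.54 (1.39 to 1.78). Ptgs2 was thus above the naive level after both injuries, and Ch25h clearly so only after ischemic injury. Neither gene showed this difference in the NG2 line: Ptgs2 was lower there after ischemic injury (85.6 against 59.5 CPM, log2 ratio -0.52), where 10 cells held 76.9% of the counts after physical injury and the levels without the 10 highest cells were 19.8 and 19.4 CPM, and Ch25h was nearly level (43.9 against 47.2 CPM, log2 ratio 0.10).

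The remaining genes past 2-fold included a pair found in venules. Lrg1, a secreted glycoprotein that modulates TGF-beta signalling in vessels, had no count among 741683 naive UMIs, where 3 counts would be 4.04 CPM, and stood at 40.5 CPM after physical and 95.9 CPM after ischemic injury, a log2 ratio of 1.22 (1.09 to 1.39). Ackr1, the atypical chemokine receptor of venules, also had no naive count and stood at 24.9 and 51.9 CPM, a log2 ratio of 1.03 (0.86 to 1.26). Both were therefore seen after either injury, and at the higher level after ischemia. In the NG2 line Lrg1 stood at 40.4 and 55.0 CPM and Ackr1 at 23.8 and 37.1 CPM, higher after ischemic injury but short of 2-fold. The NG2 counts of Ackr1 lay in 12 and 11 cells, so its direction there rested on very few cells. Those of Lrg1 lay in 20 and 40 cells, and 10 cells held 86.6% and 70.5% of them. Without the 10 highest cells NG2 Lrg1 stood at 5.42 and 16.2 CPM. Scgb3a1, a secreted secretoglobin, stood at 39.7 CPM after physical and 109 CPM after ischemic injury (log2 ratio 1.44), and at 75.9 and 123 CPM in the NG2 line. There 10 cells held 76.1% and 60.7% of its counts, and without the 10 highest cells it stood at 18.2 and 48.3 CPM. Gm5127, a predicted gene, stood at 20.2 and 56.3 CPM (log2 ratio 1.43), and at 24.1 and 23.8 CPM in the NG2 line. Its Tbx18 counts lay in 61 cells after physical and 101 cells after ischemic injury, and 10 cells held 53.8% and 47.5% of them. Without the 10 highest cells it stood at 9.34 and 29.5 CPM in the Tbx18 line, under the 50 CPM minimum. Its call was lost there, with the mean of per-cell CPM and with cells thinned to equal depth. Of the 8 genes, 6 were higher after ischemic injury in the NG2 line too, and 2 of them, Trp53i11 and Igfbp3, passed 2-fold there. The NG2 interval of Ch25h, 1 of the 6, ran from -0.19 to 0.41. The median log2 ratio over all 4036 genes compared in the NG2 line was -0.03, a near-even split. Most of the 8 genes span under 10 kb, however, and 708 of 938 such genes were higher there. The count of 6 of 8 thus does not stand out from genes of like length.

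**Figure D2:**
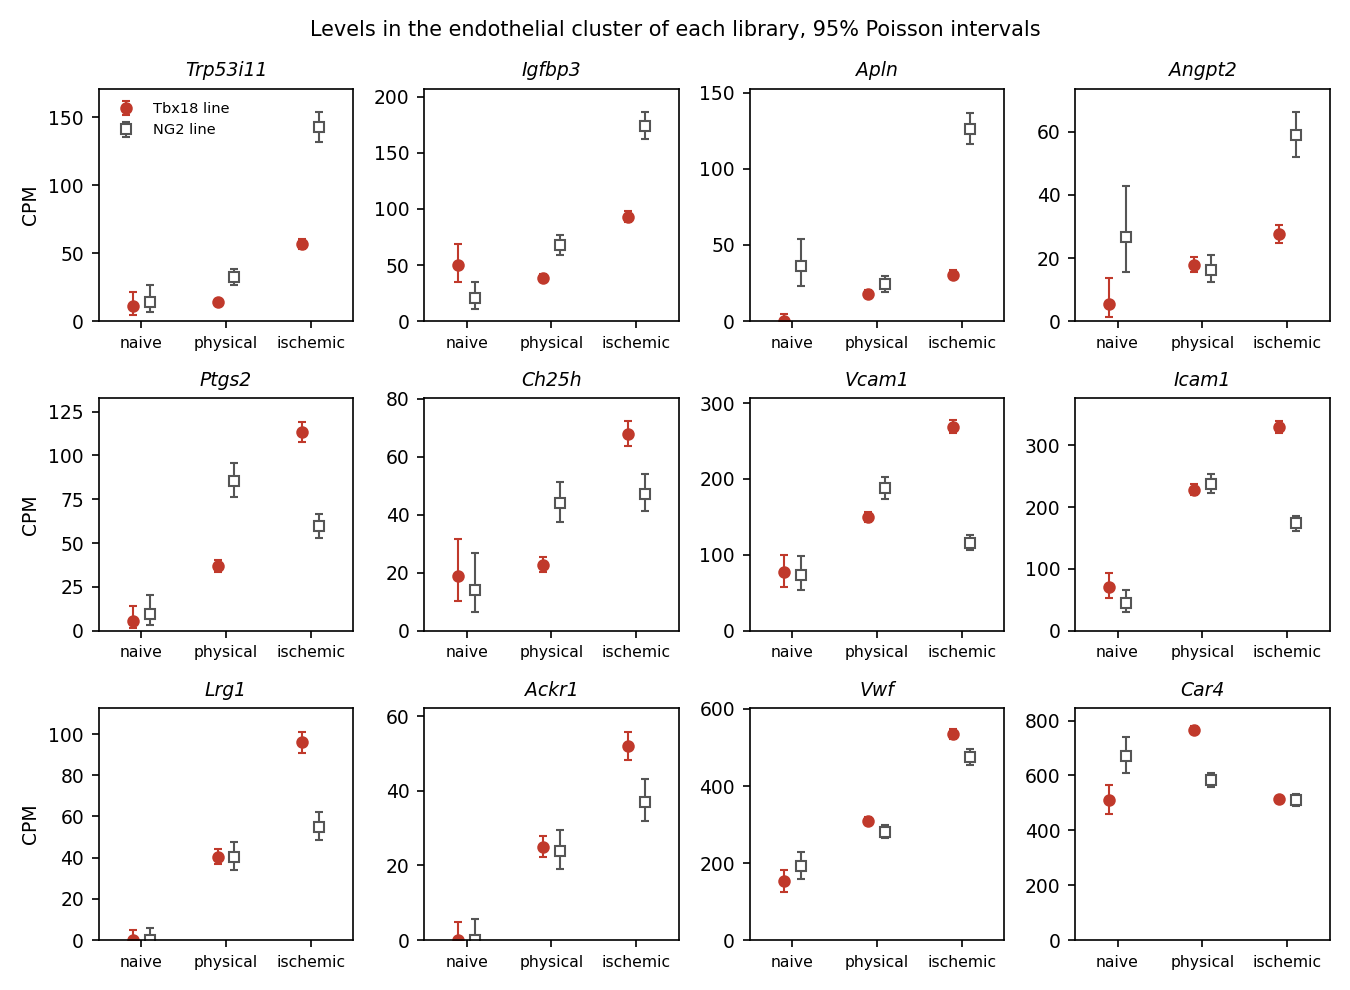
Level in CPM (y axis, from 0) of 12 genes in the endothelial cluster of the naive, physical injury and ischemic injury libraries (x axis), with 95% Poisson intervals. Filled circles are the Tbx18 line and open squares the NG2 line, 1 library each. Trp53i11, Igfbp3, Vwf, Lrg1 and Ackr1 are highest after ischemic injury in both lines, whereas Ptgs2, Vcam1 and Icam1 are highest after ischemic injury in the Tbx18 line and after physical injury in the NG2 line.

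The next 7 genes by ratio lay between 0.79 and 0.90. They were Litaf, a gene induced by bacterial lipopolysaccharide (57.3 to 108 CPM from physical to ischemic injury), the adhesion molecule gene Vcam1, the predicted gene Gm48099 (70.8 to 127 CPM), the transcriptional cofactor gene Ldb2 (30.8 to 55.8 CPM), the histone deacetylase gene Hdac9 (91.2 to 163 CPM), the membrane protein gene Tmem176a (46.9 to 82.0 CPM) and the secreted metalloprotease gene Adamts9 (105 to 182 CPM). None of these reached 2-fold. Of the 15 highest ratios, 10 were in the same direction in the NG2 line, against a near-even split of all genes there that depended on gene length. Vcam1, Gm48099 and Ldb2 were not, with NG2 log2 ratios of -0.69, -0.76 and -0.79.

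Adhesion molecules and chemokines were next examined as groups, since they govern leukocyte entry. Of the 12 leukocyte adhesion genes, 11 were measured at 10 CPM or more, and 10 of these were higher after ischemic injury, with a median log2 ratio of 0.10 against 0.00 over the 8775 genes at that level. With each ratio centred on the median of genes of like span, the adhesion median was 0.02, so most of this small shift was lost. Ackr1 was the 1 member past 2-fold, and it lay just past both limits. Its log2 ratio was 0.83 with a pseudocount of 10 CPM and 0.97 without cells that held markers of other types, and its level was under 50 CPM with thinning, with per-cell means and without the 10 highest cells, so that the call was lost in all 5. Vcam1, the ligand of the integrin VLA-4, stood at 76.9 CPM in naive cells, 149 CPM after physical injury and 269 CPM after ischemic injury (log2 ratio 0.84, 0.77 to 0.93). Icam1, the ligand of the leukocyte integrin LFA-1, stood at 71.5, 228 and 330 CPM (log2 ratio 0.53). Both were above the naive level after either injury and highest after ischemia in the Tbx18 line. In the NG2 line Vcam1 stood at 187 and 116 CPM and Icam1 at 238 and 174 CPM, lower after ischemia. There 10 cells held 57.8% of the Vcam1 counts and 43.0% of the Icam1 counts after physical injury. Without the 10 highest cells, NG2 Vcam1 stood at 79.1 and 59.0 CPM and Icam1 at 135 and 106 CPM.

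Among the 14 chemokine and cytokine genes only 6 were measured at 10 CPM, with a median log2 ratio of 0.49, 4 higher and 2 lower. Cxcl1, which attracts neutrophils, stood at 29.7 CPM in naive cells, 68.7 CPM after physical and 113 CPM after ischemic injury (log2 ratio 0.70). Cxcl12, a chemokine made by capillary and arterial endothelium, went the other way, at 2516, 2174 and 1647 CPM (log2 ratio -0.40), and was lower after ischemia in the NG2 line too (-0.58). The list thus held members on both sides.

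Selp, Sele and Cxcl10, low-level genes of these groups that were chosen after their values were seen, rested on very few cells. Selp, the selectin of rolling leukocytes, had 78 counts in 8 cells after physical injury and 564 counts in 23 cells after ischemic injury, and the 10 highest cells held 92.0% of the latter. Sele, the cytokine-induced selectin, had 75 counts in 15 cells and 226 in 31 cells. Cxcl10, an interferon-induced chemokine of T cells, had 38 counts in 21 cells and 467 in 50 cells. At 40.02, 16.04 and 33.14 CPM after ischemic injury, these genes lay under the 50 CPM minimum.

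The promoters of 4 of these genes are shown as examples of the adhesion and chemokine groups, several of whose members are textbook targets of NF-kappaB. The windows run from 250 bases before the start site to 50 bases after it, are taken from RefSeq for GRCm38.p6 and are written 5′ to 3′ on the strand of the gene, with capitals marking matches to GGNNNTTCC on either strand.
Icam1, chr9:21015690-21015989, plus strand: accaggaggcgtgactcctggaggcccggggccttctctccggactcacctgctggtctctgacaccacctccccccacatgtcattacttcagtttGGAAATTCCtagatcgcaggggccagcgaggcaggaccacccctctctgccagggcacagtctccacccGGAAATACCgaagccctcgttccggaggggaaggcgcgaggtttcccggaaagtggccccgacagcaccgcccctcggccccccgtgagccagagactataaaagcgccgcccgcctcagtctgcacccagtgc
Sele, chr1:164047984-164048283, plus strand: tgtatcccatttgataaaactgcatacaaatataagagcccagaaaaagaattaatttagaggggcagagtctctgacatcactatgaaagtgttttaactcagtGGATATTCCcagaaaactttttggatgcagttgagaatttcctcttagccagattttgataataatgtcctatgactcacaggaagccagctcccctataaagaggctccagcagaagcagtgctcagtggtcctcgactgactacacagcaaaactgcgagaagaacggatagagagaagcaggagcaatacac
Cxcl1, chr5:90890995-90891294, plus strand: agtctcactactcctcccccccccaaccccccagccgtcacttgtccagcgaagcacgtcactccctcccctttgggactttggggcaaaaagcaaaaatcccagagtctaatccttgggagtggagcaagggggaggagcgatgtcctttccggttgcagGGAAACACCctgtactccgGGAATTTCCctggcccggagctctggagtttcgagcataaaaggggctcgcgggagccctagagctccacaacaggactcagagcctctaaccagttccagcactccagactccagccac
Cxcl10, chr5:92348840-92349139, minus strand: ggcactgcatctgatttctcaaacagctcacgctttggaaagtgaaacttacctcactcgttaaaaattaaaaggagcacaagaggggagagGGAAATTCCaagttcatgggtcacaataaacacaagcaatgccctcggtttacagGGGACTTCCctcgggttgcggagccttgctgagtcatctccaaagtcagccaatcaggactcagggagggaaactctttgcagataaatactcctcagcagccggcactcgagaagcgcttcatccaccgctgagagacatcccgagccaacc
The motif was found in 18.5% of the 32851 promoters in the table, and in 20.7% of its 27025 genes. It was found in 5 of the 8 adhesion genes and 7 of the 9 chemokine genes that had a promoter there, whether or not they were measured here, and in 2 of the 8 genes past 2-fold, Ackr1 and Lrg1. Some matches overlap on the 2 strands, and a match describes these letters only.

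Of the wider acute inflammatory list, 17 of 20 genes were measured, 15 were higher and 2 lower after ischemic injury, and the median log2 ratio was 0.36. Ch25h and Lrg1, described above, were its members past 2-fold. Il1r1, the receptor of interleukin-1, stood at 51.2 CPM in naive cells, 87.1 CPM after physical and 134 CPM after ischemic injury (log2 ratio 0.62), and Nfkbiz, an inducible NF-kappaB regulator, at 197, 193 and 277 CPM (0.52). Both were lower after ischemia in the NG2 line, with log2 ratios of -0.42 and -0.15. For Il1r1 this rested on few cells: without the 10 highest cells it stood there at 38.7 and 38.6 CPM. The interferon response did not follow the same course: of 28 measured genes 15 were higher and 13 lower, with a median of 0.01 and Irf1, an interferon-induced transcription factor, having the largest ratio at 0.38 (164 against 215 CPM). Of 12 MHC class I genes 11 were higher, by a median of 0.11. None of the interferon or MHC class I genes reached 1.5-fold in the Tbx18 line. In the NG2 line 2 of the 28 interferon genes were higher and 26 lower, with a median of -0.26.

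Genes of vessel growth and of the vessel wall were slightly higher after ischemia. Of 20 measured tip cell and angiogenesis genes 16 were higher and 4 lower, with a median of 0.23, and Igfbp3 was the 1 past 2-fold. Adm, which encodes the vasodilator peptide adrenomedullin, stood at 21.6 CPM in naive cells, 38.5 CPM after physical injury and 58.3 CPM after ischemic injury (log2 ratio 0.59), and at 60.1 and 82.7 CPM in the NG2 line. The tip cell genes Apln and Angpt2, which encode secreted ligands of vessel growth and were chosen after their values were seen, stood lower, Apln at 17.7 and 30.5 CPM and Angpt2 at 17.9 and 27.5 CPM. These 2 genes reached 126 and 58.8 CPM after ischemia in the NG2 line, from 24.1 and 16.3 CPM. Of 16 basement membrane genes 15 were higher, by a median of 0.18, among them Nid1 (nidogen, 52.7 to 71.5 CPM), Col4a2 (310 to 389 CPM) and Col4a1 (483 to 583 CPM), the last 2 encoding collagen IV chains. Their log2 ratios in the NG2 line were 0.56, 0.79 and 0.73.

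Hypoxia and glycolysis genes, which answer to low oxygen, were nearly level in the Tbx18 line. Of 24 measured genes 16 were higher and 8 lower with a median of 0.05, and none passed 2-fold, whereas the NG2 median was 0.31. All NG2 genes that span under 10 kb had a median of 0.22, and the part of gene span in this difference was not tested. Immediate early genes had a median of 0.09, p53 and apoptosis genes -0.02, Wnt signalling genes -0.00, flow response genes 0.01 and junction genes 0.06. None of these 5 lists held a gene past 2-fold. Of 12 heat shock genes 10 were lower, by a median of -0.07, led by Hspb1, a small heat shock protein gene, at 2674 CPM in naive cells, 1670 CPM after physical and 1164 CPM after ischemic injury (log2 ratio -0.52). Cell cycle genes were scarce, with 8 of 25 measured and 7 of them lower, led by the microtubule regulator Stmn1 (213 against 160 CPM).

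**Figure D3:**
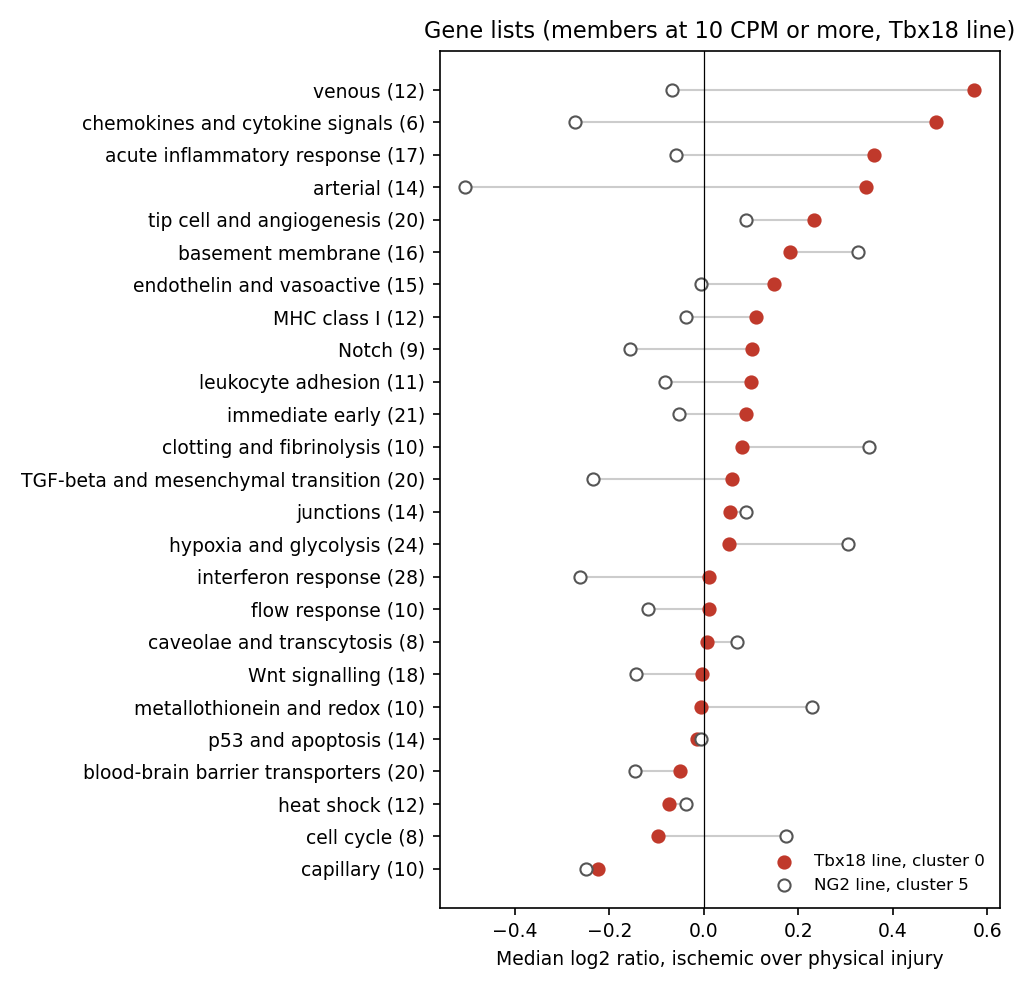
Median log2 ratio of ischemic over physical injury (x axis) for the 25 gene lists (y axis), with the number of members measured at 10 CPM or more in the Tbx18 line in parentheses. Filled circles are the Tbx18 line and open circles the NG2 line. The venous list is highest (0.57) and the capillary list lowest (-0.22) in the Tbx18 line, and the capillary list is the 1 of these with a like value in the NG2 line (-0.25).

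The lists of vessel zones separated most. Of 12 venous genes 11 were higher after ischemic injury and 6 by at least 1.5-fold, with a median of 0.57. Of all 3915 genes at 50 CPM or more, 33 were higher by at least 1.5-fold. The list counts start from 10 CPM, so these are not on a like basis. The lists were also chosen with earlier results of these data known. In the NG2 line 5 of the venous genes were higher and 7 lower, with a median of -0.07. The list shares 6 of its 12 genes, Ackr1, Vcam1, Icam1, Selp, Il1r1 and Lcn2, with the adhesion and inflammatory groups above. Vwf, which encodes the platelet-binding von Willebrand factor, stood at 152 CPM in naive cells, 309 CPM after physical and 535 CPM after ischemic injury (log2 ratio 0.79), and at 282 and 475 CPM in the NG2 line (0.75). Of 14 arterial genes 13 were higher, by a median of 0.34, among them Mgp, which encodes a calcification inhibitor of the wall (409 to 588 CPM), and Vegfc, a vascular growth factor gene (91.0 to 135 CPM). The arterial median in the NG2 line was -0.51, and Vegfc stood there at 132 and 65.8 CPM.

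Capillary genes stood on the other side. Of 10 capillary genes 9 were lower after ischemic injury, by a median of -0.22. Car4, the membrane carbonic anhydrase of capillaries, stood at 510 CPM in naive cells, 766 CPM after physical injury and 513 CPM after ischemic injury (log2 ratio -0.58), the lowest ratio apart from Rgs5. The ischemic library was thus at the naive level and the physical injury library above it, whereas the NG2 order was 673 CPM in naive cells, 584 CPM after physical and 511 CPM after ischemic injury. Mfsd2a, the lipid transporter that restrains transcytosis at the barrier, stood at 272, 273 and 207 CPM (-0.39), and Rgcc, a regulator of the cell cycle, at 804, 422 and 322 CPM (-0.39). Car4, Mfsd2a and Rgcc had NG2 log2 ratios of -0.19, -0.31 and -0.34. Of 20 barrier transporter genes 15 were lower, but by a median of -0.05 only, and the organic anion carrier gene Slco2b1 was higher (131 against 179 CPM). The 15 lowest ratios ran from -0.58 to -0.39, and 13 of them were negative in the NG2 line, where the median over all 4036 genes was -0.03.

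Each cell was also put in the zone whose list gave its highest mean scaled expression, with adhesion, chemokine and acute inflammatory genes left out of the lists. The lists kept genes that themselves differed, such as Vwf, Car4, Mfsd2a and Rgcc. A change in the mix of cells therefore cannot be told apart from a change of these genes within cells. Venous cells made up 24.05% after physical injury (430 cells, 22.1 to 26.1) and 31.5% after ischemic injury (469 cells, 29.2 to 33.9), a difference of 7.47 points (4.35 to 10.6). Capillary cells made up 49.5% and 39.0%, and arterial cells 26.5% and 29.5%. The classes are ranges of a score, and 10.7% and 7.997% of the cells lay within 0.1 of another class. The shares depended on the genes in the lists: with Slc38a5, Nr2f2 and Ephb4 alone as venous genes the venous difference was 1.33 points (-1.85 to 4.52). The capillary shares were then 43.8% after physical and 38.0% after ischemic injury.

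Within the venous class, levels still differed between the injuries. Igfbp3 stood at 9.17 CPM in venous cells after physical injury and 112 CPM after ischemic injury, while in arterial cells it stood at 125 and 169 CPM. Trp53i11 stood at 32.2 and 137 CPM in venous cells and at 9.63 and 13.4 CPM in capillary cells. Ptgs2 stood at 102 and 268 CPM in venous cells and at 5.11 and 10.3 CPM in capillary cells. Trp53i11 and Ptgs2 were therefore highest in venous cells after both injuries. By summed level, Igfbp3 was mostly arterial after physical injury and both arterial and venous after ischemic injury. Yet the arterial gene Gkn3 was held by 122 of 190 Igfbp3 cells of the cluster (64.2%) after physical and 163 of 264 (61.7%) after ischemic injury. The 10 highest cells held 36.3% of the ischemic Igfbp3 counts, so its venous level may rest on few cells. Ch25h stood at 48.4 and 141 CPM in venous cells, Lrg1 at 152 and 246 CPM, and Ackr1 at 96.7 and 140 CPM. Vcam1 stood at 407 and 544 CPM there and Icam1 at 602 and 708 CPM. When venous cells were chosen by Slc38a5, Nr2f2 and Ephb4 alone, Igfbp3 stood at 6.63 and 103 CPM and Ptgs2 at 83.7 and 283 CPM.

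**Figure D4:**
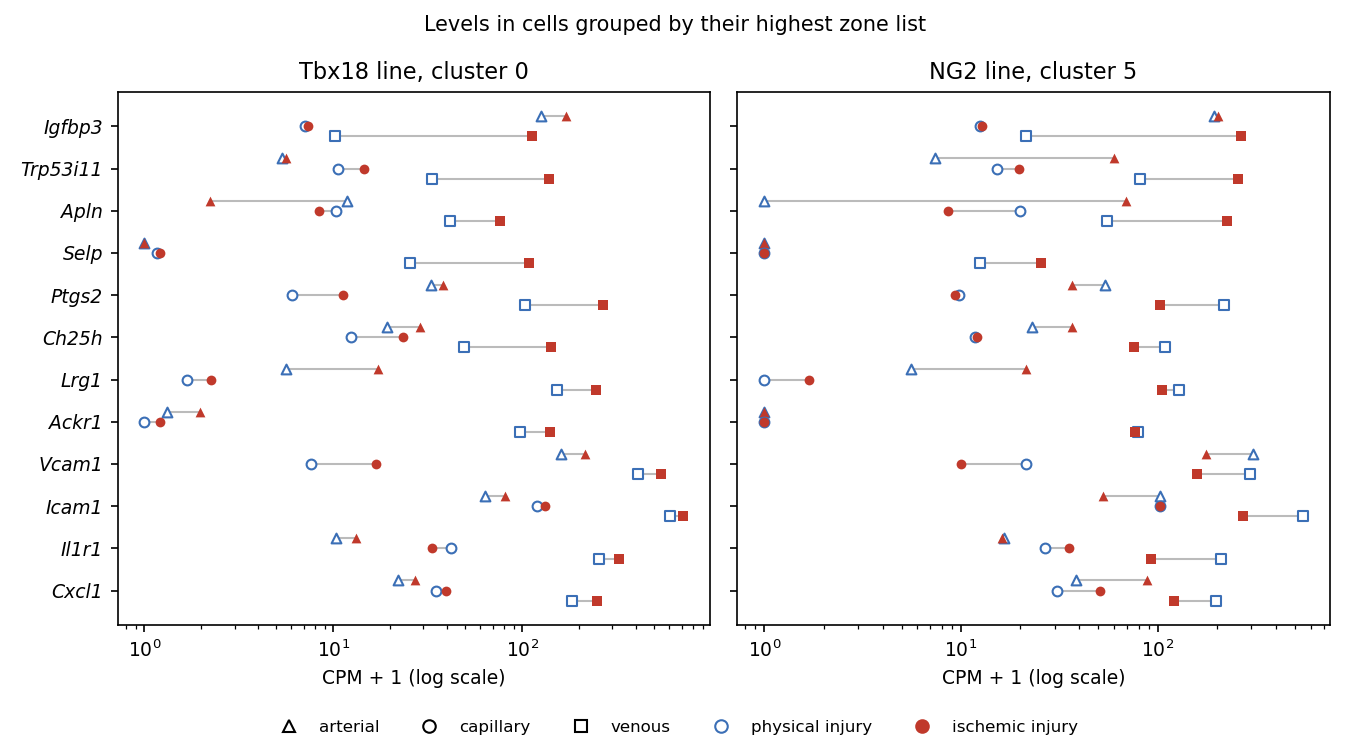
Level (x axis, CPM + 1 on a log scale) of 12 genes (y axis) in cells classed as arterial (triangles), capillary (circles) or venous (squares), after physical injury (open blue) and ischemic injury (filled red), in the Tbx18 line (left) and the NG2 line (right), 1 library each. Venous Igfbp3 and Trp53i11 are higher after ischemic injury in both lines, and venous Ptgs2, Ch25h, Vcam1, Icam1 and Il1r1 are higher in the Tbx18 line and lower in the NG2 line.

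The venous cells of the NG2 line, 91 after physical and 166 after ischemic injury, shared part of this. Their Trp53i11 stood at 80.8 CPM after physical and 255 CPM after ischemic injury, and their Igfbp3 at 20.4 and 263 CPM. Vcam1 stood at 294 and 157 CPM, Icam1 at 547 and 271 CPM and Ptgs2 at 218 and 102 CPM. Trp53i11 and Igfbp3 were thus higher after ischemia in venous cells of both lines, and Vcam1, Icam1 and Ptgs2 differed in opposite directions. Over the whole NG2 cluster, Ptgs2 stood at 19.8 and 19.4 CPM without its 10 highest cells, so its direction there rested on few cells.

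The differences were also seen as shares of cells, after each cell was thinned to 1000 UMIs so that depth was equal (53 and 10 shallower cells were left out). Cells with a Vcam1 UMI made up 6.69% after physical and 10.1% after ischemic injury, a difference of 3.40 points (1.43 to 5.39). The unthinned Trp53i11 share was 5.42% and 13.8%, and the thinned share 1.04% and 3.65%. The thinned Ptgs2 share was 2.48% and 5.07%. More cells therefore held these transcripts after ischemia. Among the 827 smooth muscle cells after physical injury, of median 10561 UMIs, the thinned shares of Vcam1 and Ptgs2 were 0.121% and 0.484%, and that of Trp53i11, which smooth muscle expresses, was 15.96%. Cells with a Car4 UMI made up 43.6% and 32.3%, a difference of -11.3 points (-14.7 to -7.91), against 1.93% of smooth muscle cells after physical injury, and 13 of 40 such cells (32.5%) after ischemic injury. For Car4 the ischemic share was thus no higher than that of the few smooth muscle cells of the same library.

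Markers of mural cells moved with the groups. Rgs5, a pericyte gene and the 1 gene past 2-fold lower, stood at 1855 CPM in naive cells, 272 CPM after physical and 88.9 CPM after ischemic injury (log2 ratio -1.60), and its level after physical injury was 4.11% of that in the pericyte cluster of the same library. The summed level of the 8 pericyte markers was 3813 CPM in naive cells, 353 CPM after physical and 103 CPM after ischemic injury, and that of the 7 smooth muscle markers was 1352, 147 and 54.8 CPM. Mural RNA in the endothelial cluster was thus highest in the naive library and lowest after ischemia. Cells with 3 or more UMIs of pericyte, smooth muscle, fibroblast or microglia and macrophage markers after thinning to 1000 UMIs were then left out. These were 137 and 20 cells. Without them, 7 of the 8 genes passed 2-fold and Rgs5 kept a log2 ratio of -1.20. The 53 and 10 cells with under 1000 UMIs were not assessed and stayed in. At full depth more cells would hold as many marker UMIs, so mural RNA was only partly removed. In the NG2 cluster the pericyte sum was 3644 and 3230 CPM, far above that of the Tbx18 injured libraries. Hemoglobin made up 0.415% of the counts after each injury in the Tbx18 line, and 10 cells held over 99% of the Hbb-bs counts.

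The ratios also moved with the length of the gene, and in opposite ways in the 2 lines. Of 778 genes that span 100 kb or more, 682 were higher after ischemic injury in the Tbx18 line, by a median log2 ratio of 0.15, whereas 868 genes under 10 kb had a median of -0.07. In the NG2 line 109 of 775 genes of 100 kb or more were higher, with a median of -0.28, and genes under 10 kb had a median of 0.22. The nuclear RNA Neat1 took 0.0220% and 0.0288% of the counts in the Tbx18 line, and 0.0220% and 0.0105% in the NG2 line. The nuclear RNA Malat1 took 2.68% and 2.42% in the Tbx18 line, and 2.78% and 1.75% in the NG2 line. Gene span and Neat1 therefore moved in opposite ways in the 2 lines, while Malat1 was lower after ischemia in both, and their part in the results was not tested. The leading genes were mostly short, Ptgs2 at 8.20 kb, Ch25h at 1.39 kb, Trp53i11 at 14.2 kb, Igfbp3 at 7.84 kb and Vcam1 at 19.7 kb, whereas Hdac9 and Ldb2 span 870 kb and 328 kb. With each ratio centred on the median of its span class, 8 genes remained past 2-fold higher, all of the 8 above. The class medians, from -0.07 to 0.15, were too small to move any of the 8 below 2-fold, so this does not test the part of gene span.

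**Figure D5:**
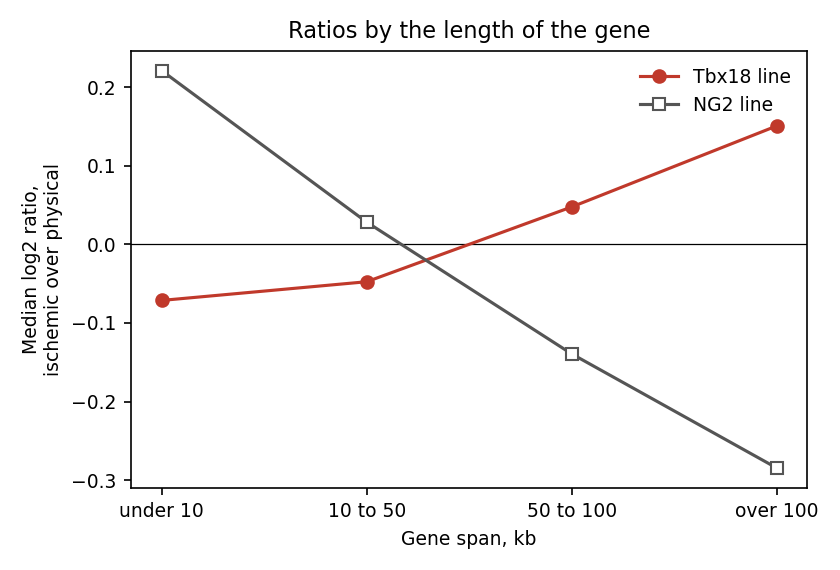
Median log2 ratio of ischemic over physical injury (y axis) for genes at 50 CPM or more, by the span of the gene in kb (x axis). Filled circles are the Tbx18 line, rising from -0.07 to 0.15, and open squares the NG2 line, falling from 0.22 to -0.28.

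Across both lines, 3755 genes reached 50 CPM in each, and 8 of them differed by a log2 ratio of 0.5 or more in the same direction, all higher after ischemic injury. They were Trp53i11, Scgb3a1, Igfbp3, Litaf, Tmem176a, Adamts9, Vwf and Smad1, a transducer of bone morphogenetic protein signals (105 to 150 CPM in the Tbx18 line and 121 to 192 CPM in the NG2 line). No gene was lower by as much in both.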

How the data were processed

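Single-cell RNA of tdT+ cells was measured in 6 libraries, 1 per line and condition. The authors deposited raw UMI counts per gene and cell with a cell table that gives the library, the cluster and the percent of mitochondrial counts of each cell. Per the labels, reads were processed with Cell Ranger 7.0.0 on mm10 (GRCm38). The study's methods name a range of Cell Ranger versions and clustering after Seurat integration. Which version made which library, and whether introns were counted in each, is not given in the sources used here, and both bear on ratios that move with gene span. No doublet removal is named in them, and no caller was run here.

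Counts of the endothelial cluster were summed per library and divided by the total (CPM), with exact Poisson intervals. Log2 ratios used a pseudocount of 1 CPM and an exact conditional interval, without the pseudocount, on the 2 counts. With 1 library per group no p-value was computed. A gene was called past 2-fold where the higher library had at least 50 CPM, and list members were counted from 10 CPM. Shares have Clopper-Pearson intervals, and their differences combine these by the square-and-add method. Genes were named by rule: the 15 largest ratios each way, apart from mitochondrial, hemoglobin and sex-linked silencing genes and those under 10% of their level in another cluster, up to 4 members of each list, the endothelial markers and 2 markers of each other type. Zone classes used the mean over a list of scaled log2 values per cell. The members and gene lists were chosen with earlier results of these data known. Gene spans came from GENCODE M21. TMM factors came from edgeR 4.0.16 in R 4.3.3. The rest was computed in Python 3.11.15 with scipy 1.17.1 for intervals, pandas 2.3.3 and numpy 2.4.6 for tables, and matplotlib 3.10.9 for plots. The calling rule was also run on simulated Poisson counts with known folds. That run had no clumping of counts in few cells and no differences between animals, and set its changes on genes well above 50 CPM. It therefore could not test the calls made near that minimum. Alternatives covered scaling, pseudocount, minimum level, depth, cell filters and zones. Those that left out the 10 highest cells of each gene, kept venous cells, left hemoglobin out of the totals, centred ratios by gene span or changed the venous list were chosen after seeing the data.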

Additional observations from a re-analysis of the deposited data

Results flagged for a closer look

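Endothelial cells of the 2 lines differed in opposite directions, by a log2 ratio of at least 0.5 in each, for 9 genes of the 3755 at 50 CPM or more in both. With 1 library per group, the difference between the lines was not tested. Given as the log2 ratio in the Tbx18 line minus that in the NG2 line, it was 2.11 for Ptgs2, the inducible cyclooxygenase, and 1.53 for the adhesion molecule gene Vcam1. For Ptgs2 the NG2 side rested on few cells, with 19.8 and 19.4 CPM after physical and ischemic injury once the 10 highest cells were left out, so that the levels there were nearly equal. On the same basis NG2 Vcam1 stood at 79.1 and 59.0 CPM, a smaller difference than with all cells. Vegfc, a growth factor gene of lymphatic vessels, differed by 1.56, Lrmda, a gene tied to melanocyte differentiation, by 1.77 and the predicted gene Gm48099 by 1.60. The small GTPase gene Arl15 and the kinase genes Rps6ka5 and Prkg1 differed by 1.46, 1.28 and 1.26. All 8 were higher after ischemic injury in the Tbx18 line and lower in the NG2 line. Ccn2, a matricellular gene whose Tbx18 endothelial level after physical injury was 7.79% of that in another cluster of that library, differed by -1.16. Lrmda, Arl15, Rps6ka5, Prkg1 and Vegfc each span more than 100 kb, and gene span moved with the ratio in opposite ways in the 2 lines. Ptgs2, at 8.20 kb, Vcam1, at 19.7 kb, and Gm48099, at 11.5 kb, do not.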

How the results depend on the processing

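With 1 library a side, the count of genes past 2-fold (8 higher and 1 lower) carries no replicate error. It was 24 higher and 15 lower with a minimum of 10 CPM, 72 and 104 with none, 5 and 3 with the mean of per-cell CPM, and 27 and 25 in the NG2 line. Thinning to 1000 UMIs gave 3 lower, and leaving out the 10 highest cells of each gene gave 5 higher. Capillary cells alone, here chosen with the whole zone lists, gave 4 higher, all hemoglobin genes and none of the 8. Those lists score Ackr1, Vcam1 and Icam1 as venous, so cells high in them were mostly kept out of this class beforehand. Venous cells alone, chosen with the inflammatory genes left out of the lists, gave 14 higher and 6 lower, where 4 of the lower ones were hemoglobin genes. TMM factors, centring on the median gene or within span classes and totals without hemoglobin left 8 and 1, and a pseudocount of 10 CPM and leaving out cells with other markers kept 7 of the 8 and Rgs5. Leaving out the deepest 5% of cells gave 7 and 1, with 5 of the 8 and 2 other genes among the 7. The study's filters applied again gave 10 and 1, with 6 of the 8 among them. The difference in the venous share was 1.33 points with 3 venous genes and 14.1 points in the NG2 line, against 7.47. The NG2 value depended on the list too: with the 3 venous genes alone its shares were 29.5% after physical and 32.5% after ischemic injury. The direction turned in the NG2 line for the venous list median (-0.0669), Ptgs2 (-0.52) and Gm5127 (-0.0165), and in capillary cells for Igfbp3 (-0.0277). The venous median turned in capillary cells too (-0.0129), but the venous list helped to set that class, so this value cannot tell a direction. The NG2 medians also lay below 0 for arterial (-0.51), chemokine (-0.27), interferon (-0.26), TGF-beta (-0.23), Notch (-0.16) and flow response genes (-0.12). The same held for adhesion (-0.08), acute inflammatory (-0.06), immediate early (-0.05), MHC class I (-0.04) and vasoactive genes (-0.01). The Tbx18 medians of all these lists lay above 0. Cell cycle and redox genes went the other way, at -0.10 and -0.01 in the Tbx18 line and 0.17 and 0.23 in the NG2 line. In capillary cells the chemokine and vasoactive medians lay below 0 too (-0.05 and -0.05), and other medians close to 0 changed sign. Vcam1, Icam1, Il1r1 and Vegfc, short of 2-fold in the Tbx18 line, turned in the NG2 line as well. The cause was not tested. Of 2320 values for the 145 named genes under the alternatives, 1791 stayed within the counting interval of the first value, and of 400 list medians 356 stayed close. Settings that changed only the minimum level left every gene ratio as it was, so those values could not move. TMM factors, centring on the median gene and totals without hemoglobin could shift the ratios only slightly. These counts are therefore not a measure of how stable the results are. No paired analysis was possible because the labels give no replicate numbers and each group was 1 pooled library. A model that takes the 2 lines as replicates of each injury was not fitted.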

Other observations

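Cells that held Apln, a peptide of growing vessels, often held Trp53i11 too. After physical injury 17 of the 44 Apln cells in the Tbx18 endothelial cluster held a Trp53i11 UMI (38.6%), against 4.59% of the others. After ischemic injury it was 47 of 67 (70.1%) against 11.1%, and in the NG2 line after ischemic injury 47 of 54 (87.0%) against 15.04%. Vcam1 was found in 8 of the 67 Apln cells (11.9%) and in 24.1% of the others, and Ackr1 in 4 of the 67 (5.97%) and in 4.86% of the others. In these libraries Trp53i11 was thus held more often by Apln cells. Vcam1 was held less often by them in the Tbx18 line, also after physical injury (6.82% against 14.4%). In the NG2 line after physical injury the Vcam1 shares were level, 2 of 11 Apln cells (18.2%) against 18.1%. Icam1 was not held less often in the Tbx18 line, at 40.9% against 25.2% after physical and 34.3% against 34.1% after ischemic injury. The values were not corrected for the depth of the cells.

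Pgf, the placental growth factor gene, chosen after its values were seen, stood at 12.7 CPM after physical and 6.74 CPM after ischemic injury in the Tbx18 line, and at 4.88 and 69.8 CPM in the NG2 line.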
